A study of Macaca mulatta with 24 samples.

Results

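The genes described here are enzymes of glycolysis, the glucose transporters that supply them, and genes of the response to low oxygen, measured in the endometrium of rhesus monkeys. A list of 39 gene symbols was matched to the gene names in the scanner files, and 22 of them were found among 18976 gene names on the array. Where a gene had several probes, the one with the highest mean was taken. Of these 22 genes, 21 were well above background on at least 3 arrays of at least 1 group and were tested, and PGK1 was not. A further 9 listed genes, among them LDHA and EPAS1, appeared in the files under another name and are given separately, since the matching rule did not choose them. ALDOA, GAPDH, PDK1, PFKFB4, BNIP3, BNIP3L and CA12 are in neither set, and PKM is there only as PKM2.

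Endometrial RNA from mated cycles with proven conception and from non-mated, normally ovulating cycles of fertile females was taken 2, 4 or 6 days after ovulation, with 4 arrays in each of the 6 groups. For the conception groups the descriptions count days from ovulation and the source names from fertilization. No gene was altered and no agent was given, as far as the labels state, and ages were not used here. The labels number the arrays but do not say that each came from a separate animal, so the p-values reflect no more than the scatter among these arrays, part of which may be technical. In 8 non-mated samples the title gives day 2 and the remaining labels day 4 or 6, and the latter were followed.

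Glycolysis splits glucose into pyruvate in the cytosol and yields ATP without oxygen. Glucose enters through facilitative transporters, is trapped as a phosphate by hexokinase, and the pyruvate made from it is either reduced to lactate or burnt in mitochondria. When oxygen is short, prolyl hydroxylases stop marking the HIF alpha subunits for destruction, and HIF then raises transcription of transporters, glycolytic enzymes and other targets. In the secretory endometrium glucose also feeds glycogen and the lactate found in uterine fluid around the time an embryo arrives.

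Levels are log2 of the 1-colour signal minus the 75th percentile of the same array, so a level of 0 lies at that percentile, and the level of one probe says nothing against that of another. On 3 non-mated arrays only 4.33% to 37.9% of probes were well above background, against 53.3% to 71.5% on the other 21. These were day 2 replicate 3 and day 4 replicates 1 and 2. The 75th percentile of the signal ran from 71.8 (conception day 6 replicate 4) to 5397 (non-mated day 4 replicate 3) on the 21 arrays. Its part in which dim probes were well above background was not tested. The comparisons use the 21 arrays, which leaves 3 non-mated arrays at day 2 and 2 at day 4, and some values with all 24 are given beside them. With all 24 arrays 41 of the 168 differences described here (21 genes in 8 comparisons) turned sign, all of them in comparisons that use non-mated arrays of day 2 or day 4. With slide as a fixed block 50 turned, 3 of them within conception cycles. Of the marker symbols looked for, 5 of 11 of epithelium (such as KRT19) and 10 of 11 of stroma (such as VIM) were measured. The epithelial list holds both EPCAM and its older name. The steroid receptors PGR and ESR1 were not among the genes tested. In whole tissue, fewer cells of a type and less RNA per cell cannot be told apart.

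Each level rests on a 60-base probe, and the results turn on 2 genes whose probes need care, SLC2A3 and GPI. SLC2A3 has 2 probes on chromosome 11 of the rheMac2 build, both on the minus strand, the used one at chr11:8299162-8299221 and the other at chr11:8300149-8300208. The used probe holds the letters AATAAA, the core of a polyadenylation signal, printed in capitals, and the other does not. The GPI probe lies at chr6:64143988-64144047 on the minus strand, whereas RefSeq places the gene GPI on another chromosome of its own assembly. Its description in the files names a predicted transcript similar to glucose-6-phosphate isomerase. The first 30 bases of each, from the scanner files, read:
SLC2A3, used probe: cAATAAAccacgtttgagagcatgagtcaa
SLC2A3, other probe: tcctcacttccacacagctctacacagcaa
GPI, used probe: gctgaagtgtttttgtgcagctgacttttc
The letters AATAAA, searched on the probe strand only, occur in 3 of the 22 probes used for the members and in 12.8% of all 20217 probes. Exon and UTR annotation of rheMac2 was not used here.

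The first comparison follows conception cycles over time. From day 2 to day 6 after ovulation, 18 of the 21 tested genes were lower and 3 were higher, with a median log2 difference of -0.65, beside -0.03 over all 11960 genes tested. The 18 include P4HA2, which was well above background on 3 or more arrays only at conception day 2. Its lower value at day 6 is thus partly fixed by this filter. Only SLC2A3 passed the test, by limma's moderated test with Benjamini-Hochberg adjustment over all genes, where 0.418% of all genes were called lower at day 6 and 1.27% higher (1.69% either way). A further 4 genes, SLC2A1, PFKFB3, GPI and PGAM1, had unadjusted p-values under 0.05 in the same direction, so that 5 members did so in all, beside 7.22% of all genes lower and 7.85% higher. In non-mated cycles the same days gave 14 higher and 7 lower, a median of 0.09, and no call by limma (0% of all genes) and none at an unadjusted p under 0.05 (1.05% of all genes higher, 0.819% lower). The 14 include PDK4, the largest rise at 0.95, which passed that filter only through non-mated day 6, so its sign is partly fixed. With slide as a fixed block 15 of the 21 were lower in non-mated cycles instead of 7. The difference between the day changes of the 2 cycle types was not called for any of the 21 genes, the smallest adjusted p being 0.935.

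**Figure D1:**
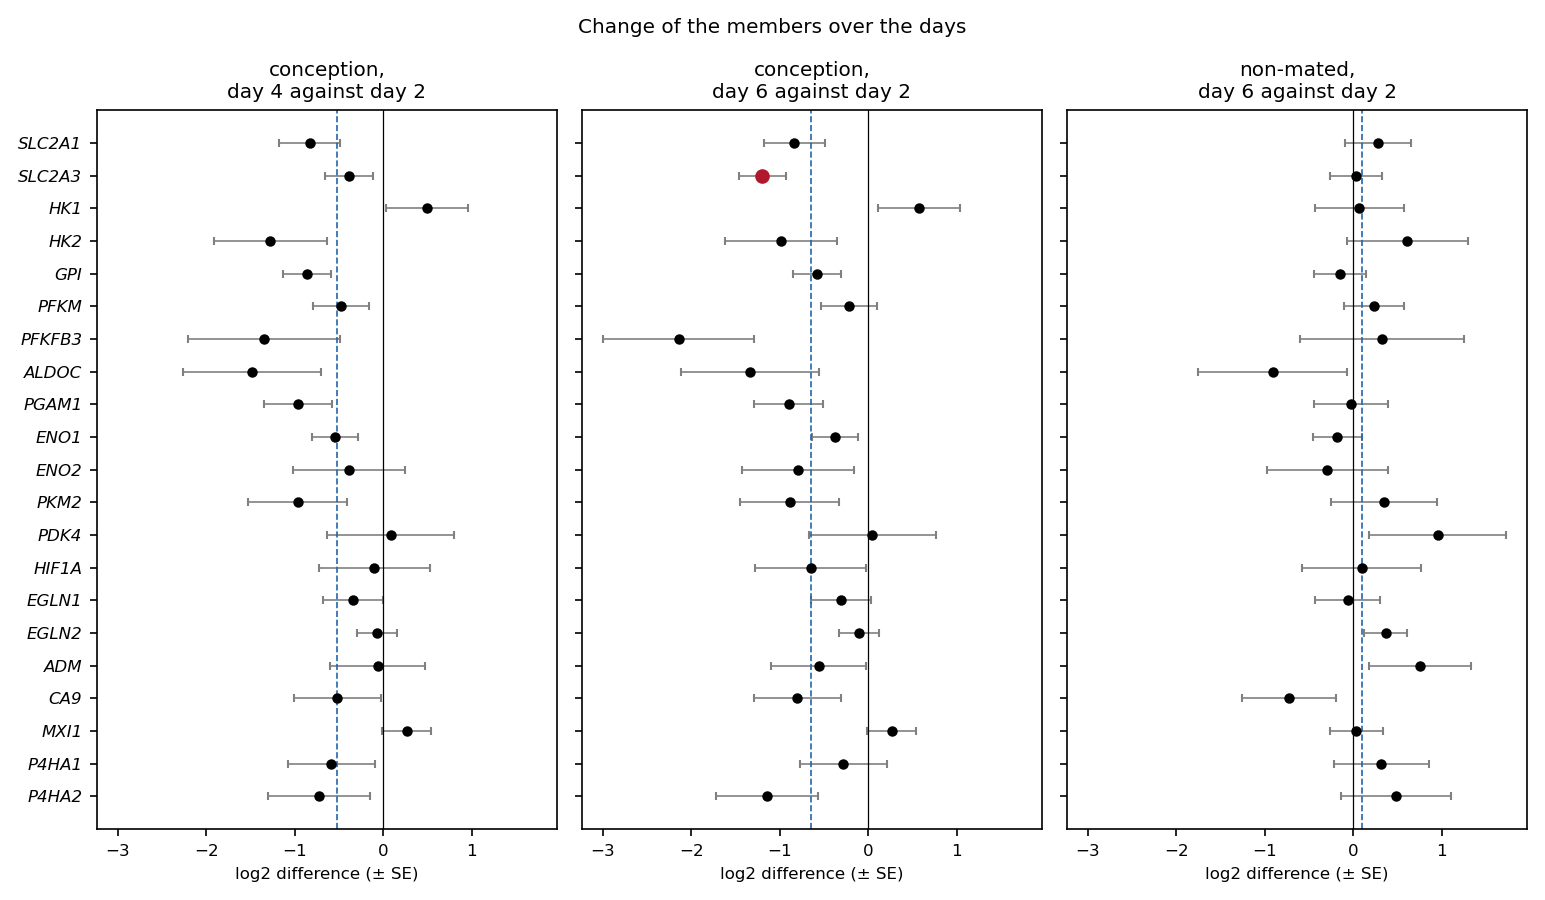
Log2 differences (horizontal axis) with SE of the 21 tested genes (rows), for conception cycles at day 4 and day 6 and non-mated cycles at day 6, each against day 2; the dashed line is the median of the members and the red point passed the test. In conception cycles at day 6, 18 points lie left of 0, and in non-mated cycles 7 do.

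The facilitative glucose transporters stand at the entry to the pathway. SLC2A3, which encodes GLUT3, a transporter with high affinity for glucose, read -3.50, -3.47, -3.66 and -3.12 on the 4 conception day 2 arrays and -3.93, -4.40, -5.16 and -5.04 on the day 6 arrays. Every day 6 array lay below every day 2 array, as was so for 2.42% of all genes, and 1 of the 21 members. The difference was -1.20 ± 0.27 (SE, n = 4 and 4) with an adjusted p of 0.0294. The probe was well above background on all 4 day 2 arrays and on 0 of the 4 day 6 arrays. With the dim signals bounded, the day 2 mean of this probe was at least 2.09-fold higher. That bound covers the dim signals only, not the scatter between arrays, the other probe or other settings. Its second probe, well above background on 7 arrays, differed by 0.22 in the other direction, and the mean of both probes gave -0.49 with an adjusted p of 0.429. The call was kept under 6 of 12 alternative settings. It was lost with all 24 arrays (adjusted p = 0.997), with normexp background correction (-0.75, adjusted p = 0.797), without the filter on dim probes (0.0588) and with slide as a fixed block (-1.44, 0.0634). A block on the replicate number gave an adjusted p of 0.0527. Leaving out any 1 of the 4 day 2 arrays, or day 6 replicate 2, 3 or 4, also ended the call, with adjusted p from 0.0572 to 0.125.

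Over the other groups SLC2A3 read -4.44, -3.56, -3.44 and -3.84 at day 4 of conception. In non-mated cycles it read -4.01, -3.63 and -3.88 at day 2, -4.70 and -4.49 at day 4, then -3.97, -3.91, -3.70 and -3.67 at day 6. The non-mated day 4 pair lay below both neighbouring days, by 0.75 against day 2 (limma unadjusted p = 0.0438, adjusted p = 1.00), as did 9.06% of all genes against day 2. Conception exceeded non-mated cycles at day 4 by 0.77 ± 0.33 (adjusted p = 0.855), without overlap, as for 7.27% of all genes, a direction that turned to -0.22 with all 24 arrays. At day 6 the difference was -0.82 ± 0.27 and was not called (limma adjusted p = 0.424). With the dim signals bounded, the non-mated mean of this probe was at least 1.61-fold higher. Across the settings tried the difference ran from -1.06 to -0.07, and the second probe gave 0.68, higher in conception. The limma F-test of cycle type by day gave SLC2A3 an unadjusted p of 0.00255, the smallest of the 21 genes, and an adjusted p of 0.968.

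SLC2A1 encodes GLUT1, the basal transporter of most tissues. It read -2.17, -1.93, -0.88 and -1.49 at conception day 2, -2.08, -2.18, -2.72 and -2.80 at day 4, then -2.07, -2.60, -3.12 and -2.02 at day 6. The lower groups overlapped day 2 only through its replicate 1. The differences were -0.83 ± 0.34 at day 4 (limma adjusted p = 0.546) and -0.84 ± 0.34 at day 6 (adjusted p = 0.255). In non-mated cycles it read -2.73, -1.94 and -1.46 at day 2, -1.61 and -2.28 at day 4, then -1.66, -1.67, -1.43 and -2.31 at day 6, ranges that overlap throughout. The day 2 difference between cycle types, 0.43 in favour of conception, turned to -0.14 with all 24 arrays.

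**Figure D2:**
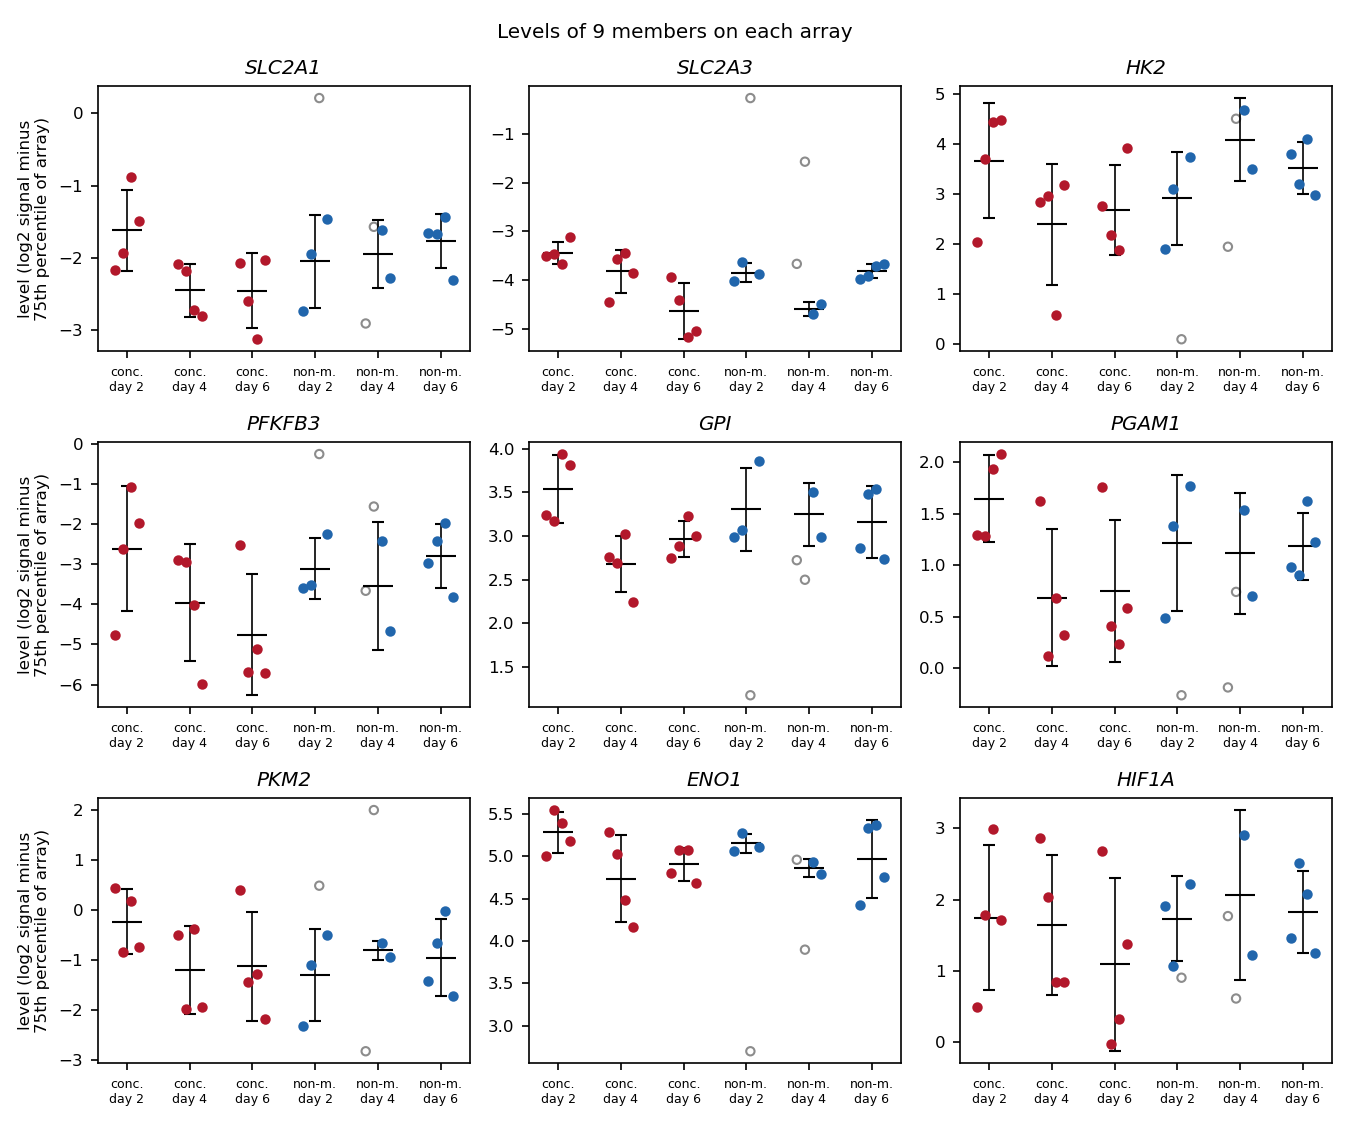
Level on every array (vertical axis, log2 signal minus the array's 75th percentile) for 9 genes in the 6 groups, with the mean and SD of the arrays used as a bar; filled points are the 21 arrays used and hollow points the 3 weak ones. For SLC2A3 the conception day 6 points, -5.16 to -3.93, lie below those of conception day 2, -3.66 to -3.12.

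Hexokinase phosphorylates glucose on entry. HK2, the inducible form, read 2.03, 3.70, 4.43 and 4.48 at conception day 2, 2.84, 2.96, 0.57 and 3.17 at day 4, then 2.76, 2.17, 1.87 and 3.91 at day 6. Replicate 3 of day 4 stood far below the rest of its group. HK2 in non-mated cycles read 1.89, 3.1 and 3.73 at day 2, 4.67 and 3.49 at day 4, then 3.80, 3.20, 4.09 and 2.97 at day 6. At day 4 the conception arrays all lay below the 2 non-mated arrays, by -1.69 ± 0.78 (limma unadjusted p = 0.0426, adjusted p = 0.855), as did 6.85% of all genes. From day 2 to day 4 HK2 differed by -1.27 in conception and by 1.18 in non-mated cycles, with adjusted p of 0.624 and 1.00. HK1, the housekeeping form, was higher at day 6 than at day 2 of conception by 0.57 ± 0.46 (adjusted p = 0.586), a sign opposite to that of most members. It read 1.88, 1.81, 1.26 and 1.56 at day 2 and 0.95, 2.92, 3.08 and 1.86 at day 6, with a wider spread at the later day.

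GPI, by its name the isomerase that turns glucose-6-phosphate into fructose-6-phosphate, gave the smallest unadjusted p of the members at day 4 against day 2 of conception. Its probe read 3.24, 3.17, 3.94 and 3.81 at day 2 and 2.76, 2.69, 3.02 and 2.25 at day 4. These groups did not overlap, as for 2.18% of all genes in this direction, and the difference was -0.86 ± 0.27 (limma unadjusted p = 0.00523, adjusted p = 0.389). At day 6 it read 2.75, 2.88, 3.23 and 3.00, a difference of -0.58 ± 0.27 with 1 array inside the day 2 range. Non-mated arrays read 2.99, 3.07 and 3.86 at day 2, 3.51 and 2.99 at day 4, then 2.86, 3.49, 3.54 and 2.74 at day 6, so their days overlapped.

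PFKFB3 makes fructose-2,6-bisphosphate, the activator of phosphofructokinase, and had the largest difference of the members at day 6. It read -4.76, -2.64, -1.08 and -1.97 at conception day 2, -2.90, -2.94, -4.01 and -6.0 at day 4, then -2.53, -5.68, -5.11 and -5.71 at day 6. Day 6 replicate 1 lay inside the day 2 range, and the other 3 lay below all of day 2. The probe was well above background on 3, 2 and 1 of the 4 arrays at days 2, 4 and 6, and on 2 arrays, day 4 replicate 4 and day 6 replicate 2, it sat at the lowest level that array records. The difference from day 2 to day 6 was -2.14 ± 0.86 (limma adjusted p = 0.240). Non-mated arrays read -3.59, -3.53 and -2.24 at day 2, -2.42 and -4.67 at day 4, then -2.97, -2.43, -1.97 and -3.82 at day 6. Conception was lower at day 6 by -1.96 ± 0.86 (adjusted p = 0.493), with overlap through replicate 1. PFKM, the muscle form of phosphofructokinase, differed by -0.22 ± 0.31 over the days of conception.

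ALDOC, an aldolase that cleaves fructose-1,6-bisphosphate, varied widely within groups. It read 0.27, 1.90, 3.06 and 1.05 at conception day 2, 1.45, 0.89, -1.01 and -0.97 at day 4, then 1.58, 0.03, -0.89 and 0.22 at day 6. The differences of -1.48 and -1.33 lay within this spread (limma adjusted p = 0.652 and 0.436). Non-mated arrays read 2.13, 1.54 and 2.81 at day 2, 1.89 and -0.65 at day 4, then 1.67, 1.36, 2.58 and -0.62 at day 6, a spread as wide.

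Lower in the pathway, PGAM1, which moves the phosphate of phosphoglycerate, had lower means on both later days of conception. It read 1.29, 1.28, 1.93 and 2.08 at day 2, 1.63, 0.12, 0.68 and 0.32 at day 4, then 1.76, 0.41, 0.24 and 0.58 at day 6. Replicate 1 of each later day lay inside the day 2 range and the other 3 lay below it. The differences were -0.96 ± 0.39 and -0.90 ± 0.39 (limma adjusted p = 0.539 and 0.280). A second PGAM1 probe gave -0.85 and -1.23, the same directions. Non-mated arrays read 0.49, 1.39 and 1.77 at day 2, 1.53 and 0.70 at day 4, then 0.99, 0.90, 1.63 and 1.23 at day 6, with a day 6 difference of -0.03.

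Enolase makes phosphoenolpyruvate, and pyruvate kinase turns that into pyruvate with a gain of ATP. ENO1, the ubiquitous enolase, read 5.0, 5.55, 5.39 and 5.18 at conception day 2 and 4.80, 5.07, 5.07 and 4.69 at day 6, a difference of -0.37 ± 0.26 with 2 day 6 arrays inside the day 2 range. Its non-mated day 4 values, 4.93 and 4.79, lay below those of day 2, 5.07, 5.28 and 5.12 (9.06% of all genes did so), and at day 6 it read 4.42, 5.34, 5.37 and 4.76. ENO2, the neuronal form, differed by -0.80 ± 0.63. PKM2, the older symbol of PKM as the array names it, read 0.44, -0.85, 0.18 and -0.75 at conception day 2, -0.51, -1.99, -0.39 and -1.95 at day 4, then 0.40, -1.46, -1.29 and -2.18 at day 6. Its difference at day 6 was -0.89 ± 0.56 (limma adjusted p = 0.468). At day 2 non-mated arrays read -2.32, -1.10 and -0.51, and conception was higher by 1.07 ± 0.60 (adjusted p = 1.00), the largest day 2 difference of the members, with overlapping groups. PGK1, which makes the first ATP of the pathway, was well above background on 2 arrays at conception day 2 and on none at day 4 or day 6. It read -4.59, -5.19, -3.56 and -3.71 at conception day 2 and -5.45, -5.68, -5.04 and -5.03 at day 6. Its group means in non-mated cycles were -4.42, -4.47 and -4.78 at days 2, 4 and 6, and it has no test. In those groups PGK1 was well above background on 1 of 3, 2 of 2 and 2 of 4 arrays. The filter asks for 3 arrays of a group, so no gene could pass through non-mated day 4, which kept 2.

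PDK4 inhibits pyruvate dehydrogenase, the mitochondrial enzyme that turns pyruvate into acetyl-CoA. Its probe was near the lower limit, at -6.18, -6.29, -4.67 and -4.89 at conception day 2, -6.16, -3.90, -5.62 and -6.0 at day 4, then -4.14, -5.68, -6.21 and -5.80 at day 6, and it was not well above background on any conception array of day 4 or 6. In non-mated cycles it read -4.87, -5.96 and -5.73 at day 2, -4.21 and -7.96 at day 4, then -3.43, -4.46, -4.68 and -5.68 at day 6. The probe sat at the lowest level the array records on conception day 2 replicate 1 and day 4 replicates 3 and 4. The same held for conception day 6 replicates 2, 3 and 4 and non-mated day 4 replicate 4. PDK4 was well above background on 3 of the 4 non-mated day 6 arrays, the 1 group through which it passed the filter. A higher value in that group is therefore partly fixed by the filter. The measured difference between cycle types at day 6 was -0.89 ± 0.72 and was not called (limma adjusted p = 0.707). With the dim signals bounded, the non-mated mean was at least 1.01-fold higher.

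Among the oxygen sensors and their effectors no difference passed the test in any comparison. HIF1A, the oxygen-labile subunit of HIF-1, read 0.50, 1.78, 2.98 and 1.71 at conception day 2, 2.86, 2.04, 0.84 and 0.85 at day 4, then 2.68, -0.02, 0.32 and 1.38 at day 6. Non-mated arrays read 1.91, 1.06 and 2.21 at day 2, 2.90 and 1.22 at day 4, then 1.46, 2.51, 2.07 and 1.25 at day 6. All 6 ranges overlapped, and the day 6 difference between cycle types was -0.73 ± 0.62 (limma adjusted p = 0.720). HIF1A is chiefly controlled at the level of its protein, which an array does not measure.

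The prolyl hydroxylases EGLN1 and EGLN2, which mark HIF subunits for destruction, differed by -0.31 ± 0.34 and -0.11 ± 0.23 over the days of conception. EGLN2 read 3.27, 3.39, 3.51 and 3.21 at conception day 2 and 3.35, 3.40, 3.26 and 2.95 at day 6. It had the smallest unadjusted p of the members between days 6 and 2 of non-mated cycles, at 0.152, for a difference of 0.36 ± 0.24, from 2.93, 3.03 and 3.38 to 3.68, 3.67, 3.46 and 3.09. At non-mated day 4 it read 3.53 and 3.40, above all of day 2, as for 8.59% of all genes. Of 2 further EGLN1 probes, one gave -0.49 at day 6 of conception and the other, well above background on 7 arrays, 0.19.

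Known HIF targets follow. P4HA2, a collagen prolyl hydroxylase, read -3.38, -4.57, -3.68 and -4.72 at conception day 2 and -3.40, -5.68, -6.21 and -5.63 at day 6, with 3 of the 4 day 6 arrays below all of day 2. The probe passed the filter only through conception day 2, so a lower value on the later days is partly fixed by the filter. It was well above background on 1 of the 4 day 6 arrays and at the lowest recorded level on 2 of them. The differences were -1.15 ± 0.58 from day 2 (limma adjusted p = 0.362) and -1.22 ± 0.58 from non-mated day 6, which read -3.79, -4.08, -3.81 and -4.36 (adjusted p = 0.532). P4HA1, its paralogue, differed by -0.28 ± 0.49 and -0.15 ± 0.49 in the same comparisons.

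ADM, adrenomedullin, a peptide that widens vessels, read -1.82, -0.46, 0.21 and -0.61 at conception day 2 and -0.69, -1.37, -2.17 and -0.71 at day 6. In non-mated cycles it read -0.43, -1.33 and -1.08 at day 2 and -0.28, 0.83, -0.82 and -0.49 at day 6. Between cycle types the day 6 difference was -1.04 ± 0.54 (limma adjusted p = 0.557), with 2 conception arrays inside the non-mated range. CA9, a carbonic anhydrase at the cell surface, was lower at day 6 in both cycle types, by -0.80 ± 0.49 in conception and by -0.73 ± 0.53 in non-mated cycles. Its non-mated values of -2.96, -2.25 and -2.89 at day 2 and -3.38, -3.28, -3.87 and -3.19 at day 6 did not overlap, as for 2.78% of all genes, with an adjusted p of 1.00.

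MXI1, which opposes MYC, differed between cycle types by 0.12, 0.33 and 0.35 at days 2, 4 and 6, and by 0.27 ± 0.18 over the mean of the 3 days (limma adjusted p = 0.761). All these signs turned with slide as a fixed block, to -0.05, -0.17, -0.05 and -0.09, and with all 24 arrays day 2 turned to -0.22. It read -1.70, -1.42, -0.84 and -2.02 at conception day 2, -1.48, -1.48, -1.16 and -0.79 at day 4, then -1.66, -1.25, -1.22 and -0.78 at day 6. Non-mated arrays read -1.06, -1.75 and -2.02 at day 2, -1.56 and -1.55 at day 4, then -1.61, -1.51, -1.34 and -1.86 at day 6. The groups did not overlap at day 4, as for 7.27% of all genes, where only 2 non-mated arrays were used.

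The cycle types were then compared on each day. At day 2, 18 of 21 were higher in conception (median 0.23, against 0.02 over all genes), at day 4, 8 were higher (median -0.39), and at day 6, 2 were higher and 19 lower (median -0.35). The 18 at day 2 include P4HA2, and the 19 at day 6 include PDK4. Each passed the filter only through the group where it was higher, so these signs are partly fixed by the filter. Of the 16 members well above background on all 21 arrays, 14 were lower at day 6. None passed limma's adjusted threshold at any day, where 0% of all genes were called at days 2 and 4 and 0.0251% at day 6. At an unadjusted p under 0.05 there were 0 members at day 2, beside 0.535% of all genes higher and 0.677% lower. At day 4 there were 2, SLC2A3 higher and HK2 lower, beside 3.02% of all genes higher and 2.59% lower. At day 6 there were 3, SLC2A3, PFKFB3 and P4HA2, all lower, beside 4.52% of all genes lower and 4.82% higher. With all 24 arrays 13 of 21 were higher at day 2, with normexp 14, and at day 4 normexp gave 10 higher and 11 lower. All 24 arrays with array weights moved the day 4 median to 0.04 and slide as a fixed block moved it to 0.26, with 17 of 21 higher. Without non-mated day 2 replicate 1 or 4 the day 2 median was 0.08 or 0.39. The day 4 median was -0.24, -0.15 and -0.15 without conception day 4 replicate 2, 3 or 4, and -0.05 without non-mated day 4 replicate 3. Without conception day 6 replicate 1 the day 6 median was -0.68. Over the mean of the 3 days 16 of 21 were lower, at a median of -0.08 and with none called by limma, beside 0.0167% of all genes, and 0 at an unadjusted p under 0.05, beside 3.54% of all genes higher and 4.24% lower. HK2 differed by -0.59 and ALDOC by -0.71 in this mean. With slide as a fixed block 16 of 21 were higher. These comparisons and those over the days share arrays.

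**Figure D3:**
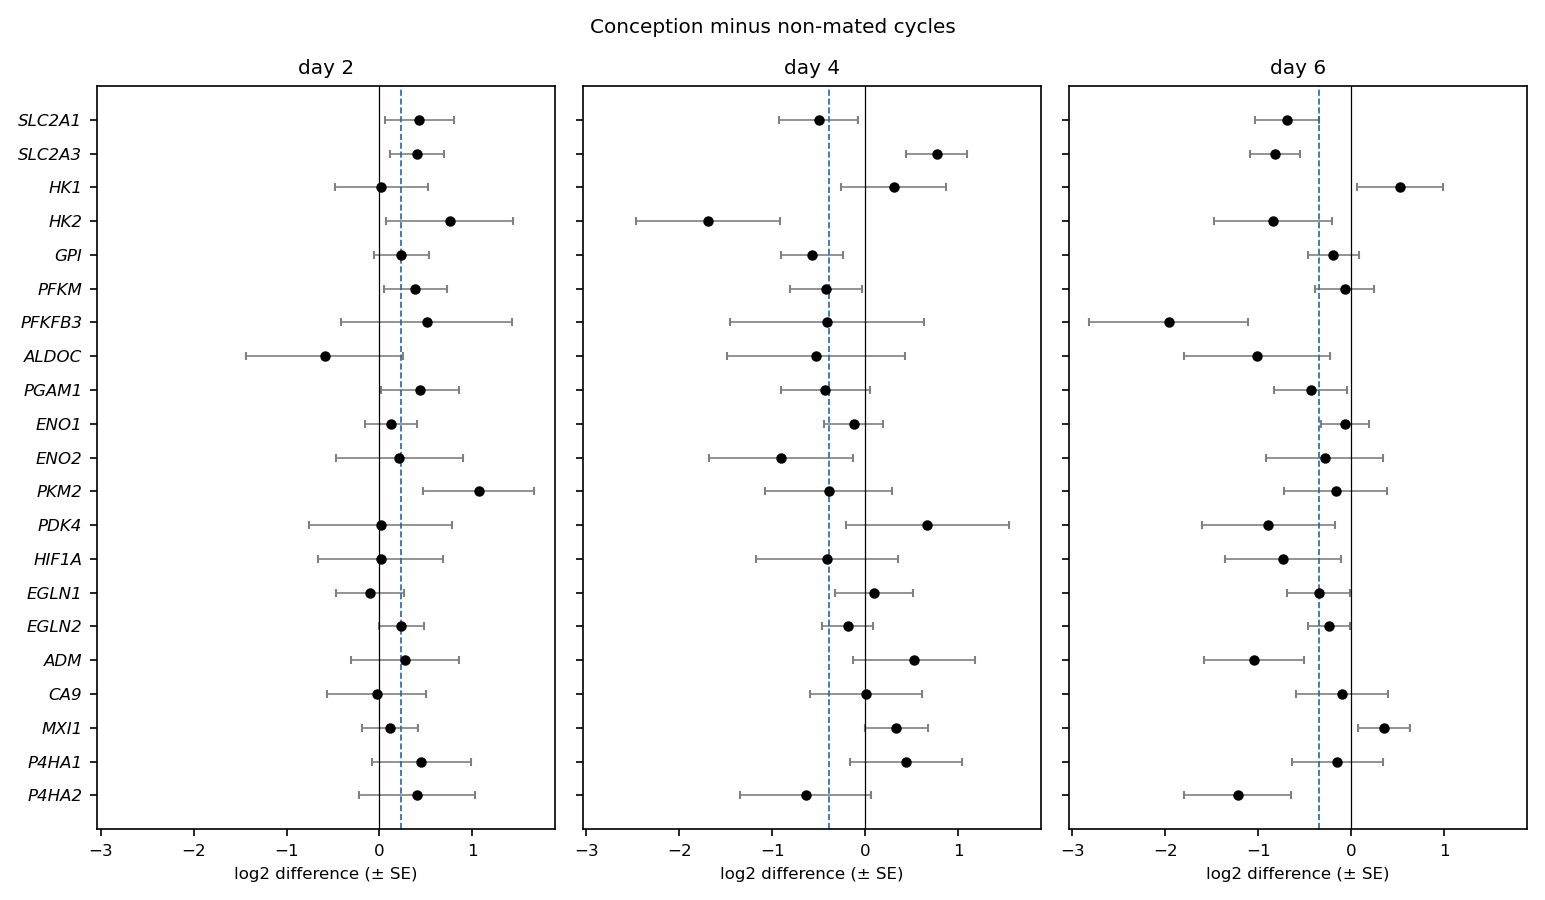
Conception minus non-mated cycles (horizontal axis, log2 difference with SE) for the 21 tested genes (rows) at days 2, 4 and 6; the dashed line is the median of the members. The median lies at 0.23, -0.39 and -0.35, and at day 4 it rests on 2 non-mated arrays.

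From day 2 to day 4 of conception, 18 of 21 members were lower, at a median of -0.52, and none was called, beside 0.00836% of all genes. P4HA2, among the 18, passed the filter only through conception day 2. SLC2A1, GPI, PGAM1 and ENO1 had unadjusted limma p-values under 0.05, all lower, beside 4.42% of all genes lower and 3.9% higher. From day 2 to day 4 of non-mated cycles 10 members were higher and 11 lower, with a median of -0.06 and none called by limma, beside 0% of all genes. SLC2A3 alone had an unadjusted p under 0.05, beside 1.3% of all genes lower and 1.32% higher. The F-test of the day effect called 0 of 21 members in conception, beside 0.485% of all genes, and 4 had an unadjusted p under 0.05, beside 11.2% of all genes. In non-mated cycles 0 members did so, beside 1.54%, and 1 in the test of cycle type by day, SLC2A3, beside 2.68%. For the day effect in conception SLC2A3 came nearest, with an adjusted p of 0.0872.

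The conception day changes were also taken within scan days. Replicates 3 and 4 of the conception groups were on slides 7 and 8 and scanned on the first scan day, and replicates 1 and 2 were scanned on the second. On the first scan day 19 of 21 members were lower at day 6 than at day 2, at a median of -1.24. On the second, 12 of 21 were lower, at a median of -0.28. From day 2 to day 4 the median was 0.04 on the second scan day against -1.03 on the first. On the second scan day conception day 2 was on slide 4, day 4 on slides 2 and 3, and day 6 on slide 1. The conception day changes of that scan day are therefore also changes of slide. SLC2A1, well above background on every array, differed by -1.38 on the first scan day and by -0.29 on the second, and PGAM1, likewise measured throughout, by -1.60 and -0.20. At day 6 the cycle types differed by a median of -0.85 on the first scan day and by -0.01 on the second, where 11 of 21 members were lower. All conception arrays of the first scan day were on slides 7 and 8, and all non-mated ones on slides 5 and 6. At day 6 their shares of probes well above background were 54% to 60% and 70% to 71%, in that order. The value of -0.85 is thus also a difference between slides, and the part of slide in it was not tested. In non-mated cycles the medians of day 6 against day 2 were 0.05 and 0.16. Each of these values rests on 1 or 2 arrays a group, and the difference between scan days was not tested.

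**Figure D4:**
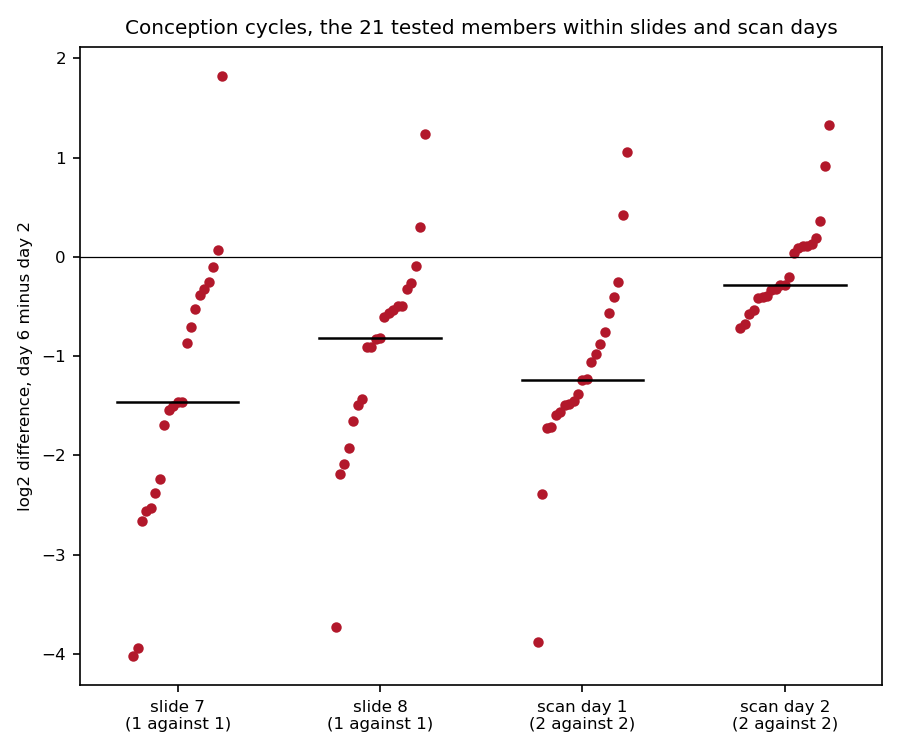
Log2 difference between day 6 and day 2 of conception cycles (vertical axis) of each of the 21 tested genes, in ascending order, within slide 7, slide 8 and each scan day; the bar is the median. Slides 7 and 8 make up scan day 1, and the median is -1.46, -0.81, -1.24 and -0.28 from left to right.

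Markers of cell types were compared over the same days. From day 2 to day 6 of conception, 3 of the 5 measured epithelial markers of 11 listed symbols were lower and 2 higher, at a median of -0.94. KRT19, a keratin of simple epithelia, differed by -1.49, and PAX8, a Müllerian epithelial factor, by 0.04. The mean level of this list was 2.74 to 3.58 on the day 2 arrays and 2.34 to 2.75 on the day 6 arrays. The 6 measured markers of natural killer, T and B cells, of 12 listed, were all higher, at a median of 1.03, with mean levels of 0.39 to 1.12 at day 2 and 1.46 to 1.63 at day 6. These were NKG7, GNLY, PRF1, GZMA, GZMB and CD2, with no B cell marker among them. From day 2 to day 6 of non-mated cycles the same 6 were also all higher, at a median of 0.84. None of these markers passed the test, and their part in the levels of the members was not tested. Stroma, endothelium and macrophage lists had medians of -0.05, -0.03 and 0.07. The 4 measured smooth muscle markers of 6 listed had a median of 0.03, with 2 higher and 2 lower. None of these was called. The mean level of the smooth muscle list was 1.00 to 5.30 on the day 2 arrays and 1.49 to 2.67 on the day 6 arrays. Its part in the levels of the members was not tested. Between cycle types at day 2, all 6 measured tissue-handling genes of 9 listed were higher in conception (median 0.65), with mean levels of -0.24 to 0.47 against -1.09 to 0.09. The same 6 markers of natural killer and T cells were all higher in conception at each day, at medians of 0.65, 0.80 and 0.53. At day 4 macrophage markers were higher in 5 of 5 (median 1.13), endothelial in 5 of 5 (0.56) and stromal in 9 of 10 (0.64). At day 6 epithelial markers were lower in 3 of 5 (median -0.48), with mean levels of 2.34 to 2.75 against 2.80 to 3.37. None of these was called either, and their part was not tested. The share of probes well above background was 57.5% to 67.3% on the conception day 2 arrays and 54.2% to 59.7% on the day 6 arrays, and the part of this in the dim probes was not tested.

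Of the listed genes found under another identifier, LDHA, which makes lactate from pyruvate, read 2.30, 2.25, 3.51 and 3.52 at conception day 2, 1.44, 1.95, 1.87 and 2.80 at day 4, then 2.18, 1.97, 1.68 and 2.67 at day 6. The differences were -0.88 ± 0.38 and -0.77 ± 0.38 (limma adjusted p = 0.572 and 0.353), with overlap. LDHB, the form that favours pyruvate, differed by 0.05 at day 6. PFKP and PFKL, the platelet and liver forms of phosphofructokinase, differed by -0.95 and -0.66, and TPI1, triosephosphate isomerase, by -0.43, none of them called. LDHA in non-mated cycles read 2.35, 2.84 and 3.19 at day 2, 2.71 and 2.61 at day 4, then 2.39, 2.75, 3.28 and 1.75 at day 6.

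EPAS1, which encodes HIF-2 alpha, read 1.05, 1.48, 1.01 and 1.34 at conception day 2 and 1.69, 0.51, 0.53 and 1.30 at day 6, a difference of -0.21 ± 0.30, and 1.03, 1.17, 1.03 and 1.59 at non-mated day 6. ENO3 and PGAM2, the muscle forms, differed by -0.12 and -0.43. EGLN3, the hydroxylase that is itself a HIF target, was well above background on 7 of the 21 arrays and was not tested. At non-mated day 4 it was so on 2 of 2 arrays, too few for the filter. It read -5.67, -5.78, -1.70 and -5.32 at conception day 2 and was not well above background on any conception day 6 array.

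Other genes of the same pathways, from lists that do not repeat the members, gave no common direction. Of 40 further symbols of glycolysis, gluconeogenesis and pyruvate handling, 12 were measured. At conception day 6 against day 2, 4 of these were higher and 8 lower (median -0.07), none called. This list and that of hypoxia hold both the old and the new name of some genes. The lactate and pyruvate carrier SLC16A1 differed by -1.07. Of 19 measured of 41 further hypoxia symbols, 6 were higher and 13 lower (median -0.23), and 1 was called. That gene, NDRG1, a stress-responsive gene, rose by 2.99 (limma adjusted p = 0.0276), a value of 0.65 (adjusted p = 0.797) with normexp. It was not called with all 24 arrays (0.736), with slide as a fixed block (0.0695), or without conception day 2 replicate 1, 3 or 4 or day 6 replicate 2, 3 or 4 (0.064 to 0.101). The 6 measured of 10 other sugar transporters of the SLC2A family were all higher, at a median of 0.75, with SLC2A4, the insulin-responsive transporter, at 1.51 (adjusted p = 0.112), and none was called. The 5 genes of the pentose phosphate pathway and the 10 of glycogen turnover had medians of 0.20 and 0.10, with none called.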

How the data were processed

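Arrays were 1-colour Agilent rhesus arrays. Per the file headers, the deposited scanner files hold intensity values (gProcessedSignal) from Feature Extraction 9.5.3.1, background-subtracted and not scaled between arrays, on the rheMac2 build. The submitters' processing notes name version 10.7.3.1. The authors' deposited value table holds log2 values. Differences between arrays in it followed those of the scanner files (r 0.9985 to 1.00), its column medians run from -0.41 to 2.85, and its centring stays unknown. Here log2 was taken of each spot, the 2 spots of a probe were averaged without flagged outlier spots, and each array's 75th percentile was subtracted. Where every spot of a probe was flagged, all were kept. A probe counted as well above background where any spot kept was so. The 3 arrays with under 50% of probes well above background were left out. Probes well above background on 3 arrays of a group were kept (12681 probes, 11960 genes). One limma model (3.58.1, R 4.3.3) of 6 group means gave all tests, with Benjamini-Hochberg adjusted p under 0.05 as the threshold, and was tested on simulated data. The number of arrays limits the precision. Other genes of the same pathways and markers were matched by updated symbols.

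Members, lists and tests were chosen with earlier results of these data known. Every member is named. Array values are printed for 8 preset genes and for the 3 with the smallest p per comparison, though not in every group for each gene. A fold written as "at least" sets the bright group's mean against, per dim array, the higher of its own signal and the lowest signal well above background. It takes no account of the scatter between arrays or of other settings, so it is no minimum of the true difference. The labels do not say that a replicate number pairs arrays, and the main fit takes no pairing. Deviations of same-numbered arrays correlated at -0.37 to 0.64 (median 0.02, 45 pairs). For arrays of different number they did so at -0.56 to 0.56 (median -0.02, 137 pairs). These pooled values cannot show that no pairing exists. In the conception groups replicates 3 and 4 lie on slides 7 and 8.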

Additional observations from a re-analysis of the deposited data

Results flagged for a closer look

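Of 88 sets of 4 arrays (22 genes in the 4 groups that kept 4 arrays), 3 held an array far from the other 3, judged by its gap over the range of the group; chance gives this in about 1 of 20 sets. HK2 read 0.57 on conception day 4 replicate 3, where the others read 2.84 to 3.17. PFKM read -0.13 on conception day 6 replicate 3, with the others at 0.26 to 0.33. PGK1 read -5.75 on non-mated day 6 replicate 4, with the others at -4.59 to -4.36, and its probe was not well above background there.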

How the results depend on the processing

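SLC2A3 was the single member past the threshold (conception day 6 against day 2). That count was 0 with all 24 arrays, normexp, no filter on dim probes, the mean of a gene's probes, slide as a fixed block and a block on the replicate number; leaving out 1 array gave 0 to 1. Where a probe had to be well above background on every array, SLC2A3 was not tested and the count was 0 by construction. For the day effect in conception, leaving out 1 array gave 0 to 1 members (1 without conception day 6 replicate 1). The block on the replicate number changed no other call of a member. In the conception groups the number goes with the scan day. There, replicate 3 of every day was on slide 7 and replicate 4 on slide 8. The median of the members moved with slide as a fixed block to 0.26 (cycle types, day 4), -1.11 (conception, day 6 against day 2) and -0.62 (non-mated, day 4 against day 2), 0.13 (mean of days), -0.15 (non-mated, day 6 against day 2), -0.14 and 0.44 (cycle types, days 6 and 2), and with all 24 arrays and array weights to 0.0424 (cycle types, day 4). Among the 3 genes with the smallest p per comparison, signs turned with all 24 arrays for SLC2A3 at days 2 and 4 between cycle types (-0.49, -0.22) and SLC2A1 at day 2 (-0.14), and with slide as a fixed block for MXI1 over the mean of days (-0.0896). Over all 21 genes, signs turned with all 24 arrays for 9, 7 and 0 between cycle types at days 2, 4 and 6, 7 over the mean of days, 7 and 11 over the non-mated days and 0 over the conception days. With slide as a fixed block these numbers were 4, 11, 5, 13, 6, 8, and 2 and 1. Leaving out 1 array moved the median over the mean of days between -0.25 and -0.04, that of non-mated day 4 between -0.32 and 0.20, and that of non-mated day 6 between -0.06 and 0.34. The cause was not tested.

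Over all genes, calls at conception day 6 against day 2 went from 202 to between 0 and 374 across settings, and to 0 to 583 without 1 array. Those for the day effect in conception went from 58 to 0 to 130, for conception day 4 against day 2 from 1 to 0 to 31, and for the cycle types at day 6 from 3 to 0 to 13. Without the filter, 3100 probes were called between cycle types at day 4 and 3427 over the mean of days, against 0 and 2 with it. Normexp moved the median of all genes to 0.21 at day 2 between cycle types and to -0.25 at day 4 against day 2 of conception, beside members at 0.39 and -0.63. The share of members lower at conception day 6 was 85.7% to 90.5% across settings, and 17 to 19 of 21 without 1 array. Dim probes (SLC2A3, PFKFB3, PDK4, P4HA2, PGK1) limit what their levels can show.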
